A study of Zea mays with 3 samples.

Results

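The CENH3 domains of the maize line F3-152 were located from its own anti-CENH3 ChIP-seq library and compared, chromosome by chromosome, with those of the inbred line B73. Each read on chromosomes 1 to 10 was assigned by its midpoint to a 10-kb bin, and each library was scaled to the median of its non-empty bins. A bin at 10 times this median or more was called enriched, and enriched bins with gaps of up to 500 kb were joined into a domain. In F3-152 the rule gave 54 domains of any size, of which 8 held at least 10 enriched bins, and in B73 it gave 39, of which 7 held at least 10. All values at a bin are given as fold, the reads in the bin over the median of the same library, and all positions are on B73 RefGen_v4.

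The series held 3 libraries from young leaves, labelled F3-152, F3-600 and B73, with B73 given as the control, and its title speaks of irradiated maize. All were precipitated with a rabbit antiserum against maize CENH3 after digestion of nuclei with micrococcal nuclease. The labels do not say how F3-152 was bred, which parents it came from or how many plants were pooled, and the published study does not report on it. There was 1 library per line, so no test between lines was possible and every interval below is a 95% exact interval for counting error only.

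CENH3 is the variant of histone H3 that replaces H3 in part of the nucleosomes at active centromeres and on which the kinetochore is built. Maize centromeres hold the tandem repeat CentC and centromeric retrotransposons, but the place of a centromere is set by CENH3 chromatin and not by one DNA sequence. CENH3 chromatin can therefore lie at different places on the same chromosome in different lines, and domains over DNA without the usual repeats are known in maize as neocentromeres or de novo centromeres.

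The F3-152 library was the deeper one, with 20955210 reads from 10738510 fragments on chromosomes 1 to 10, against 7709773 reads from 4472645 fragments in B73. The median bin held 90 reads in F3-152 and 32 in B73. Counting reads at one position and strand only once left 96.3% of the F3-152 reads and 79.8% of the B73 reads. The highest mapping quality, 60, was given to 56.7% of the F3-152 reads and 58.4% of the B73 reads. The read names showed 1 instrument per library and a different one for each, so line, run, depth and duplicate level cannot be told apart. Of all 210639 bins, 644 were enriched in F3-152 (0.306%) and 734 in B73 (0.348%). The threshold cut through a continuous range, since 43 bins of F3-152 lay from 10 to under 11 times the median and 43 from 9 to under 10 times. The smallest F3-152 domain that was kept held 10 enriched bins and the largest that was not held 6. The 46 smaller F3-152 domains held 87 enriched bins, of which 46 were enriched in B73 as well.

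The 8 domains of F3-152 lay on 6 chromosomes. Chromosomes 1, 3, 4 and 5 had 1 each, chromosomes 9 and 10 had 2 each, and chromosomes 2, 6, 7 and 8 had none. The 7 domains of B73 lay on chromosomes 2, 3, 4, 5, 8, 9 and 10. On chromosomes 3, 4, 5, 9 and 10 a domain of F3-152 overlapped the domain of B73. Chromosome 1 had such a domain in F3-152 alone, chromosomes 2 and 8 had one in B73 alone, and chromosomes 6 and 7 had none in either line. Together the 8 F3-152 domains had 5.57 Mb of enriched bins within spans of 9.72 Mb, with a median of 20.2-fold, against 6.67 Mb within 10.37 Mb and 23.4-fold for the 7 B73 domains. They took 5.34% of the F3-152 fragments (interval 5.33% to 5.36%), against 7.21% of the B73 fragments (7.18% to 7.23%) in the B73 domains. By reads the shares were 5.36% in F3-152 and 6.91% in B73.

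**Figure D1:**
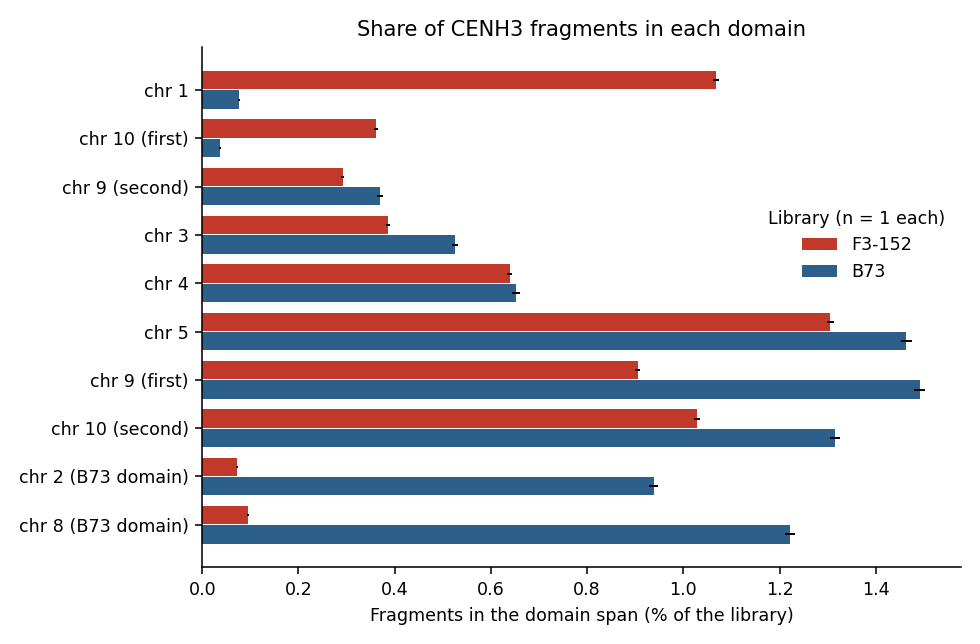
Fragments within the span of each domain as a percent of all fragments of the library on chromosomes 1 to 10, in F3-152 (red) and B73 (blue), with 95% exact binomial intervals for counting error as black lines and 1 library per line. The 8 upper pairs are domains called in F3-152 and the 2 lower pairs domains called in B73 alone. The chromosome 1 domain took 1.07% of the F3-152 and 0.0767% of the B73 fragments, and the order is turned round for the B73 domains of chromosomes 2 and 8.

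The domain of F3-152 on chromosome 1 ran from 140710001 to 142100000, a span of 1.39 Mb in which 99 of the bins were enriched. Their median was 21.2-fold in F3-152 and 1.34-fold in B73, and no bin of the span was enriched in B73, where the highest reached 3.69-fold. The span held 114621 fragments of F3-152, or 1.07% (1.06% to 1.07%), and 3432 of B73, or 0.0767% (0.0742% to 0.0793%). The share of the library was thus 13.9 times as large in F3-152 as in B73 (13.4 to 14.4). By reads the span held 225888 in F3-152 and 5593 in B73, and the interval does not cover this choice of count. Like every domain called in 1 line only, the span was picked for high values in that line, which favours a large difference. The third library, F3-600, was at 1.73-fold over the same bins. No other F3-152 domain was as far above B73 in its share of fragments.

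Within this domain the signal was highest in the part from 140910001 to 141010000, where the median bin was 44.9-fold in F3-152 and 1.19-fold in B73. Over the following stretches of 100 kb up to 141810000 the F3-152 medians stayed between 18.0- and 25.7-fold, and B73 stayed between 0.938- and 1.59-fold. Towards the right edge F3-152 stood at 12.5- and 14.4-fold, then at 7.92-fold in the last stretch and at 3.46-fold just beyond it. On the left side the edge was less sharp, with 4.86- and 4.37-fold in F3-152 over the 2 stretches before the domain, against 1.45- and 1.38-fold in B73. Within the enriched bins the F3-152 reads were spread along the DNA, and the top 10% of the 1-kb windows held 21.4% of them. Of these windows 89.4% were at 10-fold or more in F3-152 and 0.101% in B73. The bins were picked at the same 10-fold in F3-152, so the rule largely sets this difference between the lines.

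Chromosome 1 had no domain of at least 10 enriched bins in B73. The largest site called there was a narrow one from 137000001 to 137120000, with 7 enriched bins in B73, of which 5 were enriched in F3-152, and 4 of these bins were at 50-fold or more in all 3 libraries. The place of CENH3 on chromosome 1 of B73 was therefore not resolved by these reads.

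The first domain of F3-152 on chromosome 10 ran from 11840001 to 12770000, a span of 0.93 Mb with 33 enriched bins. These had a median of 19.0-fold in F3-152, 1.30-fold in F3-600 and 1.06-fold in B73. The span took 0.361% of the F3-152 fragments (0.358% to 0.365%) and 0.0376% of the B73 fragments (0.0358% to 0.0394%), a ratio of 9.60 (9.15 to 10.1). No bin of it was enriched in B73, where the highest was at 2.19-fold.

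Unlike the chromosome 1 domain, this one was broken into separate peaks. Its enriched bins made up 35.5% of the span, against 71.2% on chromosome 1, and the longest gap between them was 170 kb. By stretches of 100 kb, the F3-152 medians along the span were 14.1-, 3.83-, 0.344-, 0.344-, 10.3-, 22.4-, 2.17-, 0.256- and 9.78-fold. B73 was even over the same stretches, from 0.641- to 1.08-fold, so the low stretches of F3-152 were also low relative to B73. Bins below 0.25-fold made up 25.8% of the span in F3-152 and 9.68% in B73. F3-600 had 36.6% of such bins, and its medians in the stretches from 12040001 to 12240000, where F3-152 was at 0.344-fold in both, were 0.211- and 0.172-fold. Bins this low were frequent beside the domain as well, with 24.0% of the flanking 1 Mb on either side in F3-152 and 9.50% in B73. Whether these stretches are absent or different in the DNA of F3-152 was not tested, since no input or genomic library of the line was used here.

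**Figure D2:**
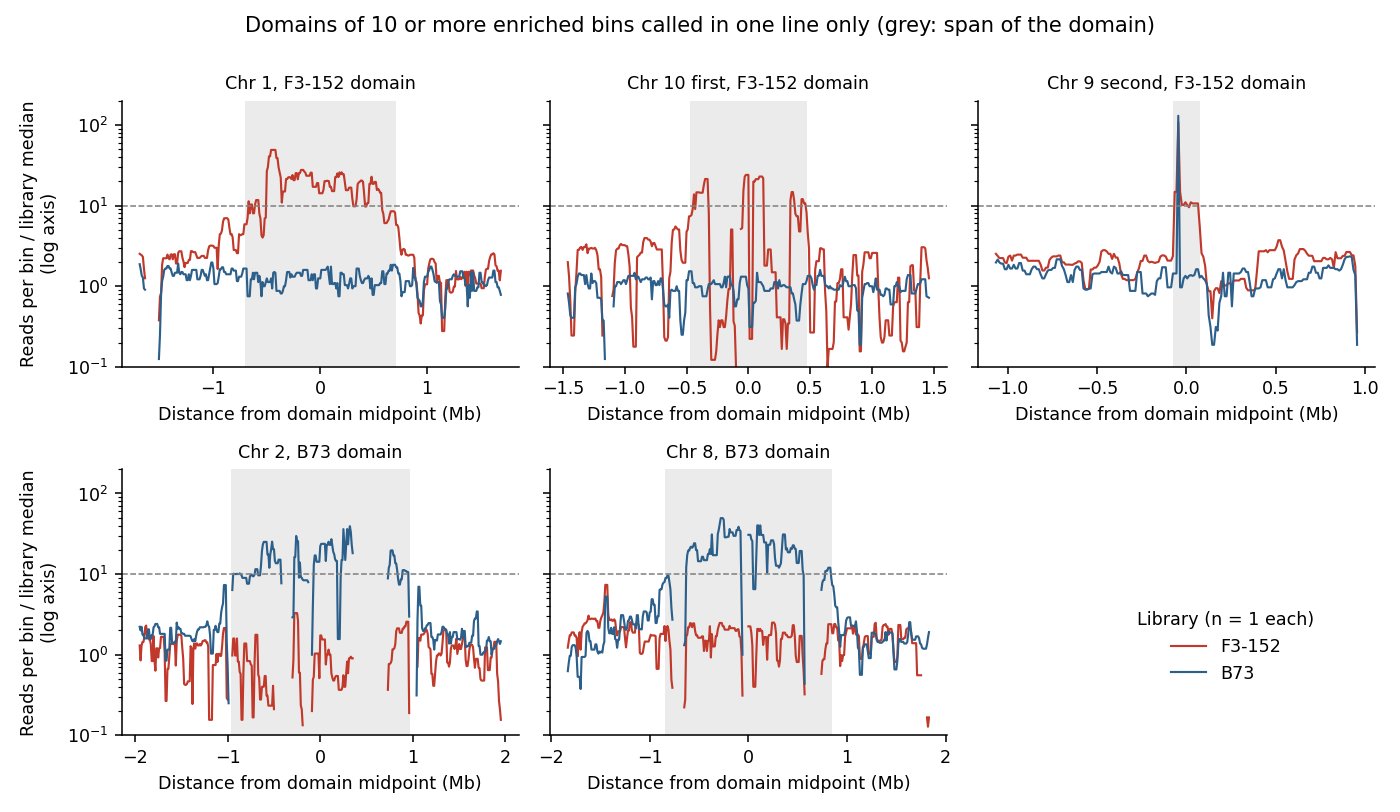
Fold per 10-kb bin (log axis, median of 5 neighbouring bins, values under 0.1 not drawn) against the distance from the domain's midpoint in Mb, for F3-152 (red) and B73 (blue), 1 library each. Grey marks the span of the domain, the dashed line is 10-fold, and the panels show the 3 domains of at least 10 enriched bins called in F3-152 alone and the 2 called in B73 alone. The F3-152 line stands near 20-fold over chromosome 1 and in separate peaks over the first chromosome 10 domain, while B73 lies near 1-fold in both.

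Of all bins, 146 (0.0693%) were at 10-fold or more in F3-152 and below 2-fold in B73. The chromosome 1 domain held 92 of them, the first chromosome 10 domain 32 and the second chromosome 9 domain 5, and no other F3-152 domain held more than 4. Because these bins were picked by both values, the count is a description of where they lie. The opposite pattern, at 10-fold or more in B73 and below 2-fold in F3-152, was met by 129 bins (0.0612%), with 71 in the B73 domain of chromosome 2 and 54 in that of chromosome 8.

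The second domain of F3-152 on chromosome 9 was the smallest, with 10 enriched bins in a span of 0.14 Mb from 57390001 to 57530000. Most of its reads came from 3 bins that were at 50-fold or more in all 3 libraries. These held 83.1% of the F3-152 reads of the span, 81.3% of the F3-600 reads and 98.2% of the B73 reads. Over the whole span the share of fragments was lower in F3-152, at 0.292% (0.289% to 0.295%), than in B73, at 0.370% (0.364% to 0.376%). The picture differed in the other 11 bins. They had a median of 10.6-fold in F3-152, with a range of 2.74 to 14.9 and 7 bins enriched, against a median of 1.28-fold in B73, with a range of 0.125 to 2.72 and no bin enriched. F3-600 had a median of 15.7-fold there and 9 bins enriched. The span was chosen by the F3-152 values, and the lowest F3-152 bin was just above the highest B73 bin. The domain stood at the minimum of 10 enriched bins. Without the 3 high bins it held 7, and with duplicate positions counted once it held 8.

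On 5 chromosomes the F3-152 domain lay at the place of the B73 domain. Since the bins enriched in a line are picked for being high in that line, shares of fragments were compared over the joint span of both domains. The count of fragments was itself not neutral, because a fragment with 1 mate kept counts as much as one with both. In its own domains of at least 10 bins F3-152 had 5.36% of its reads and 5.34% of its fragments. B73 had 6.91% of its reads and 7.21% of its fragments, so counting fragments set B73 higher. Ratios by reads over the joint spans are not given here. Over these joint spans F3-152 had the lower share of fragments on each of the 5 chromosomes. The ratio to B73 was 0.735 on chromosome 3 (0.724 to 0.747), 0.965 on chromosome 4 (0.952 to 0.978), 0.880 on chromosome 5 (0.872 to 0.888), 0.594 on chromosome 9 (0.588 to 0.60) and 0.773 on chromosome 10 (0.766 to 0.781). By share of the library the domain of chromosome 9 thus stood farthest below B73, and that of chromosome 4 was within 5% of it. The order depends on the measure, since over the bins enriched in both lines the median log2 ratio was lower on chromosome 3, at -0.81, than on chromosome 9, at -0.71.

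The chromosome 9 domain ran from 53770001 to 55120000 in F3-152 and from 53770001 to 55390000 in B73. The left ends fell in the same bin, and the right end of F3-152 was 270 kb short of that of B73. Of the 103 bins enriched in F3-152, 102 were among the 135 enriched in B73. Over these common bins the median was 17.1-fold in F3-152 and 30.8-fold in B73, and 93.1% of the bins were lower in F3-152. At the right end the stretches of 100 kb from 55070001 on were at 8.50-, 5.25- and 5.12-fold in F3-152, against 15.6-, 13.2- and 11.8-fold in B73, so the shorter F3-152 domain followed the same profile at a lower level. Just left of the domain the order was the other way, with 4.66- and 5.67-fold in F3-152 against 3.20- and 3.95-fold in B73. F3-600 was at 1.67-fold over the bins enriched in F3-152.

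The second domain of chromosome 10 had the most similar profile in both lines. It ran from 51560001 to 52780000 in F3-152, with 97 enriched bins, and from 51470001 to 52780000 in B73, with 112. All 97 were also enriched in B73. The median over them was 22.3-fold in F3-152 and 27.6-fold in B73, with a median log2 ratio of -0.28, and 89.7% were lower in F3-152. The read-weighted centre of the F3-152 domain lay 13.6 kb left of that of B73. Across the 125 bins of the joint span with reads in all libraries, Spearman's rho between the fold of F3-152 and that of B73 was 0.925. This domain and the first one on the same chromosome were separate in F3-152, and the second took the larger share, at 1.03% of the fragments (1.02% to 1.03%) against 0.361% for the first.

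The chromosome 5 domain was the longest of F3-152, from 104310001 to 106420000, and held 123 enriched bins, the same number as in B73. Its bins were not all the same ones: 101 were enriched in both lines, 82.1% of each set. The start of F3-152 minus that of B73, which began at 104750001, was -440 kb. Most of this extension to the left was a peak with medians of 11.3- and 17.6-fold in F3-152 over the stretches from 104310001 to 104510000, against 2.52- and 3.28-fold in B73, where F3-600 was at 8.35- and 15.4-fold. The next 100 kb were low in both lines, at 1.46-fold in F3-152 and 2.83-fold in B73. The 100 kb directly before the B73 domain, from 104650001 to 104750000, were higher in F3-152 again, at 9.90-fold against 4.14-fold in B73. With merging over 100 kb the main piece of the F3-152 domain began at 104660001. On the right the F3-152 domain ended 140 kb before that of B73, and the last stretch of F3-152 above the threshold was at 11.3-fold, against 16.8-fold in B73. Over the common bins the median was 24.3-fold in F3-152 and 28.5-fold in B73.

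On chromosome 4 the domain ran from 109090001 to 110490000 in F3-152, with 59 enriched bins, and from 109050001 to 110230000 in B73, with 62. Only 37 bins were enriched in both, 62.7% of those of F3-152 and 59.7% of those of B73. The difference had a direction along the chromosome. In the left part, from 109290001 to 109390000, the median was 12.9-fold in F3-152 and 22.3-fold in B73, and from 109690001 to 109790000 it was 6.43-fold in F3-152 and 22.7-fold in B73. In the right part the order was reversed, with 16.4-, 14.3- and 10.8-fold in F3-152 over the stretches from 110190001 to 110490000, against 8.09-, 4.25- and 1.92-fold in B73. The read-weighted centre of the F3-152 domain was accordingly 296 kb to the right of that of B73, the largest shift among the 5 chromosomes. The share of fragments over the span of the F3-152 domain, 0.639% in F3-152 and 0.652% in B73, was nearly the same. F3-600 shared the high right part, at 21.0-, 16.5- and 9.50-fold.

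The chromosome 3 domain ran from 85840001 to 87020000 in F3-152 and from 85880001 to 86750000 in B73. It was the most broken domain of F3-152. Its 33 enriched bins made up 28.0% of the span, the longest gap was 490 kb, and 32.2% of the bins of the span held no read in F3-152, against 31.4% in B73. The gap was just under the 500 kb allowed, and with merging over 100 kb the domain split into 2 pieces, the larger with 17 of the 33 enriched bins. As on chromosome 4, F3-152 was lower than B73 in the left part and higher on the right. From 86040001 to 86140000 the median was 7.29-fold in F3-152 and 17.6-fold in B73, and from 86940001 to 87040000 it was 11.4-fold in F3-152 and 2.62-fold in B73. The centre of the F3-152 domain lay 277 kb to the right. The 2 lines had 19 enriched bins in common, 57.6% of those of F3-152 and 54.3% of those of B73, with a median log2 ratio of -0.81. At 20 times the median 10 bins of F3-152 were left, in 2 separate pieces.

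**Figure D3:**
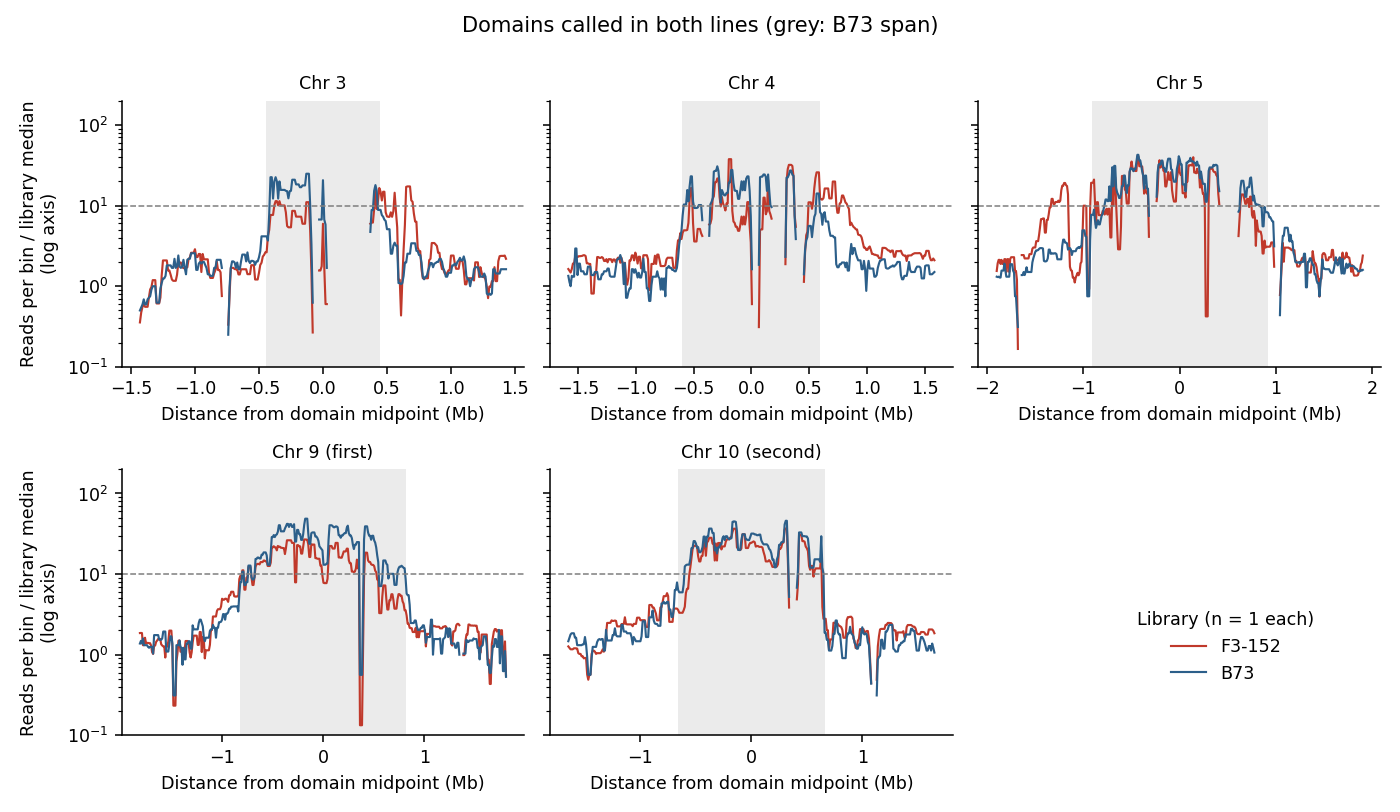
Fold per 10-kb bin (log axis, median of 5 neighbouring bins, values under 0.1 not drawn) against the distance from the midpoint of the B73 domain in Mb, for F3-152 (red) and B73 (blue), 1 library each, on the 5 chromosomes where the domains overlap. Grey marks the B73 span and the dashed line 10-fold. The lines run together on chromosome 10, F3-152 lies below B73 over most of the chromosome 9 domain but not at its left edge, and on chromosomes 3 and 4 F3-152 lies above B73 at and beyond the right edge, as it does left of the B73 span on chromosome 5.

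Among these domains, bins enriched in F3-152 but not in B73 numbered 14 on chromosome 3, 22 on chromosome 4, 22 on chromosome 5, 1 on chromosome 9 and none on chromosome 10. Most of them were not at background in B73. Their medians were 17.2-, 14.8- and 14.9-fold in F3-152 on chromosomes 3, 4 and 5, against 5.33-, 4.38- and 3.73-fold in B73. Bins enriched in B73 but not in F3-152 numbered 16, 25, 22, 33 and 15 on chromosomes 3, 4, 5, 9 and 10, and F3-152 had medians from 5.83- to 7.31-fold there. A bin lost from the domain at the threshold was therefore in most cases still several times above the F3-152 median. Spearman's rho between the lines was 0.526 over 80 bins on chromosome 3, 0.524 over 116 on chromosome 4, 0.782 over 193 on chromosome 5 and 0.899 over 161 on chromosome 9. The bins share the reference sequence and its mappability in both libraries, so these are descriptions of likeness and carry no test.

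**Figure D4:**
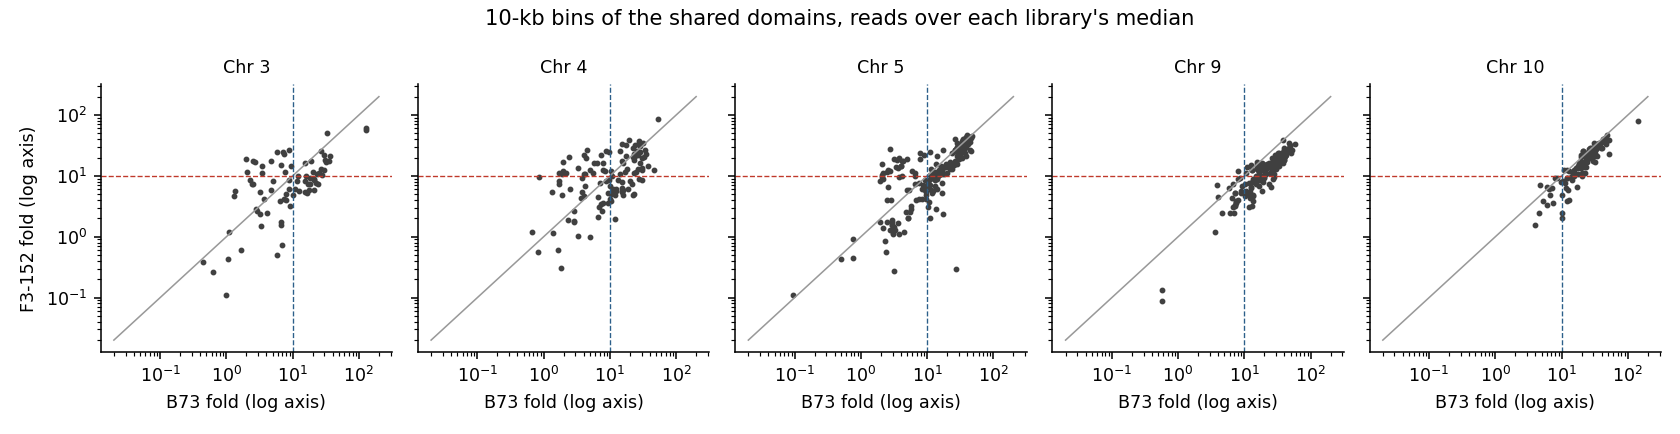
Fold of F3-152 (y, log axis) against fold of B73 (x, log axis) in the 10-kb bins of the joint span of both domains with reads in both libraries, 1 panel per chromosome and 1 library per line. The grey line marks equal fold and the dashed lines 10-fold in F3-152 (red) and in B73 (blue). On chromosomes 9 and 10 the points follow the grey line at a lower level (rho 0.899 and 0.925), whereas on chromosomes 3 and 4 they scatter to both sides of it (rho 0.526 and 0.524).

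The B73 domain of chromosome 2, from 95580001 to 97490000, had 93 enriched bins in B73 and none in F3-152. Over these bins the median was 0.989-fold in F3-152, 0.938-fold in F3-600 and 17.2-fold in B73. The span took 0.0718% of the F3-152 fragments (0.0702% to 0.0734%) and 0.938% of the B73 fragments (0.930% to 0.947%), a ratio of 0.0765 (0.0746 to 0.0784). The highest bin of F3-152 in the span was at 9.08-fold, just below the threshold. Over the whole span the median of F3-152 was 0.400-fold, and 44.5% of its bins were below 0.25-fold, against 27.7% in B73. This span median counts empty bins, which made up 28.3% of the span in F3-152 and 27.7% in B73, whereas the fold is scaled to non-empty bins. Over the bins enriched in B73, F3-152 was near its genome-wide median, at 0.989-fold. The reads of F3-152 were also less evenly spread, since in the 1-kb windows of the enriched bins 34.9% held no read in F3-152, against 5.81% in B73, and the top 10% of the windows held 50.6% of the F3-152 reads. Of the F3-152 reads in the span 37.1% had a mapping quality of 60, against 53.0% of the B73 reads.

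On chromosome 8 the B73 domain ran from 50340001 to 52010000 with 107 enriched bins, of which none was enriched in F3-152. The median was 1.98-fold in F3-152, 1.70-fold in F3-600 and 23.1-fold in B73. The span took 0.0954% of the F3-152 fragments (0.0935% to 0.0973%) and 1.22% of the B73 fragments (1.21% to 1.23%), a ratio of 0.0781 (0.0765 to 0.0798). Here the median of the whole span was 1.48-fold in F3-152, and 21.0% of its bins were empty, against 19.8% in B73. Its bins under 0.25-fold made up 22.8% of the span, against 19.8% in B73, its highest bin was at 3.20-fold, and the top 10% of the 1-kb windows held 21.3% of its reads, against 21.2% in B73. The signal in the span matched that beside it, since the median over the 1 Mb to the left was 2.08-fold and over the 1 Mb to the right 1.59-fold in F3-152.

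No domain of at least 10 enriched bins took the place of these 2 elsewhere on chromosomes 2 and 8 in F3-152. The site with the most reads was a single bin on chromosome 2 from 176910001 to 176920000, at 14.3-fold in F3-152 and 1.94-fold in B73, in which 0.698% of the F3-152 reads had a mapping quality of 60. On chromosome 8 it was a site of 3 bins from 48850001 to 48880000, of which 2 were enriched in B73 too. As broad but weaker enrichment could be missed by the threshold, the highest median over any 500 kb outside the domains was taken. It was 2.09-fold on chromosome 2 and 2.49-fold on chromosome 8 in F3-152, where B73 was at 1.27- and 1.31-fold over the same stretches. For chromosomes 6 and 7, where neither line had a domain, it was 2.55- and 2.49-fold in F3-152. The largest such values on the chromosomes with a domain were alike, at 2.83-fold on chromosome 3 and 2.66-fold on chromosome 10, so no chromosome without a domain stood out.

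The narrow sites on chromosomes 6 and 7 were enriched in both lines. The site of chromosome 7, from 56630001 to 56670000, was called at the same bins in F3-152 and in B73, with 3 enriched bins at a median of 79.8-fold in F3-152 and 39.1-fold in B73. The order was reversed in the mean over the span, 63.3-fold in F3-152 and 74.0-fold in B73. It was also reversed in the share of fragments, 0.120% in F3-152 and 0.167% in B73. The F3-152 site of chromosome 6 was 1 bin from 106900001 to 106910000, at 116-fold in F3-152 and 112-fold in B73. Only 3.67% of the F3-152 reads there, and 3.07% at the site of chromosome 7, had a mapping quality of 60. The B73 site of chromosome 6 was another bin, from 12820001 to 12830000, at 242-fold in B73 and 51.4-fold in F3-152. Its share of fragments in F3-152 over that in B73 was 0.209 (0.199 to 0.220). Of the F3-152 reads in it 22.8% had a mapping quality of 60, against 30.9% of the B73 reads. In the 7 F3-152 domains other than the small one on chromosome 9, the share of F3-152 reads with this quality was between 39.7% and 67.8%. The CENH3 domains of F3-152 on chromosomes 2, 6, 7 and 8 were therefore not located by reads that can be placed on this reference.

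The lengths of the fragments gave a measure that the calling rule did not use. In F3-152 the enriched bins of all 8 domains had shorter fragments than the DNA beside them. The median length was between 157 and 160 bp in the domains, between 165 and 168 bp within 1 Mb on either side and 170 bp outside the domains of both lines. Fragments shorter than 150 bp, about the length of DNA around a complete nucleosome or less, made up 35.5% to 38.8% of the fragments in the domains of F3-152, 27.2% to 29.7% beside them and 25.7% outside. The domain of chromosome 1 and the first of chromosome 10, which B73 did not have, stood at 35.5% and 36.5%. Of the shared domains that of chromosome 9 was the lowest, at 35.9%. The others were at 38.8% on chromosome 3, 37.1% on chromosome 4, 37.8% on chromosome 5 and 37.5% on chromosome 10. The small domain of chromosome 9 had 36.5% without its 3 high bins and 38.2% in them.

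The places of the B73 domains without enrichment in F3-152 differed in this measure. Over the bins of chromosome 8 the F3-152 fragments had a median of 166 bp with 27.9% under 150 bp, against 29.2% beside them. Over the bins of chromosome 2 they had a median of 160 bp with 35.8% under 150 bp, against 28.7% beside them, a value within the range of the F3-152 domains. It rests on 5643 paired fragments, against 99033 in the chromosome 1 domain.

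In the B73 library the lengths ran differently. Its fragments were longer, with a median of 193 bp and 17.9% under 150 bp outside the domains, and its own domains had a median of 183 to 188 bp with 14.0% to 15.9% under 150 bp. The share of short fragments was thus higher in the domains than beside them in F3-152 and lower in B73. Over the F3-152 domain of chromosome 1, where B73 was not enriched, B73 had 19.7% of short fragments, against 18.3% beside it. Over the first chromosome 10 domain it had 16.7% from 430 fragments, against 19.1% beside it. The libraries were size-selected from a gel, and the digestion and selection of each cannot be told apart from the line, so lengths are compared here within a library.

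**Figure D5:**
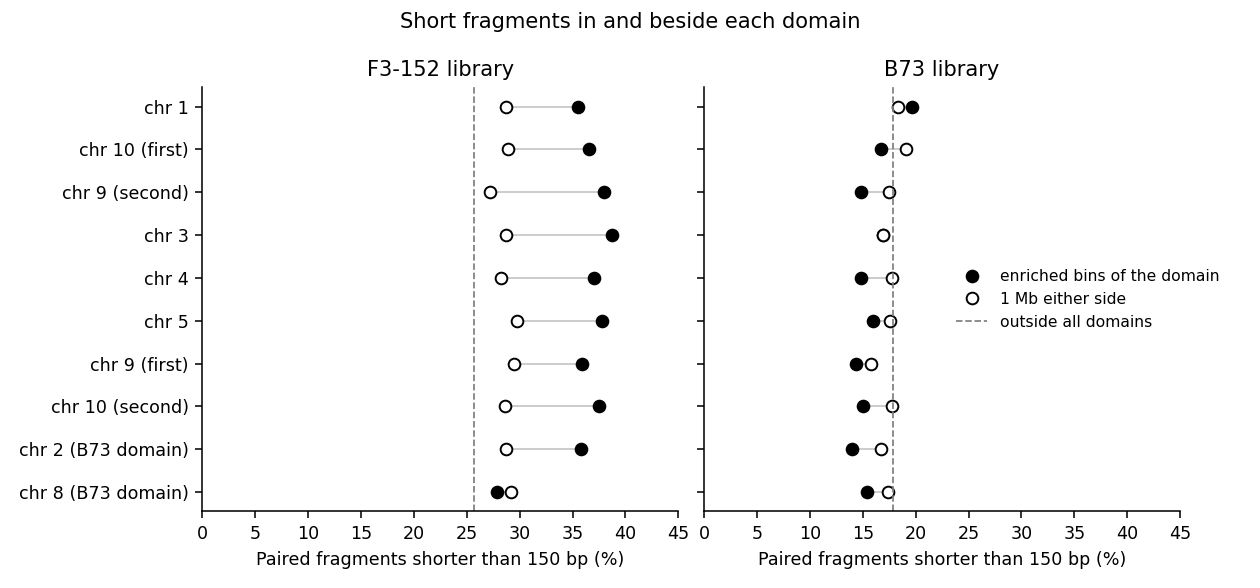
Percent of paired fragments shorter than 150 bp in the F3-152 library (left) and the B73 library (right), 1 library each. Filled circles are the enriched bins of each domain, taken in the line that called it, open circles the 1 Mb on either side, and the dashed line the bins outside the domains of both lines. In F3-152 every filled circle of its own 8 domains lies right of its open circle (35.5% to 38.8% against 27.2% to 29.7%). That of the B73 domain of chromosome 2, where F3-152 had no enriched bin, does so too (35.8% against 28.7%). The filled circle of the B73 domain of chromosome 8 does not (27.9% against 29.2%).

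The background around the domains was not even in F3-152. Bins below 0.25-fold in F3-152 and at 0.75-fold or more in B73 made up between 4.85% of the bins, on chromosome 4, and 11.6%, on chromosome 9. The median fold of whole chromosomes in F3-152 was between 0.70 on chromosome 9 and 1.11 on chromosome 8, whereas in B73 it was between 0.969 and 1.03. Chromosome 9, which had the lowest median, also had the shared domain with the lowest ratio to B73 by share of the library. Over the joint span its domain took 14.2% of the F3-152 fragments of the chromosome, against 17.3% of the B73 fragments. The same share on chromosome 3 was 3.50% in F3-152 and 4.52% in B73, and on chromosome 10 it was 13.0% in F3-152 and 16.1% in B73, so by share of the chromosome the domain of chromosome 9 was not the farthest below B73. The part of these differences in the domain heights was not tested.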

How the data were processed

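Nuclei of young leaves were digested with micrococcal nuclease, and DNA precipitated with an antibody against CENH3 was sequenced as paired ends. Per the labels, CASAVA and BWA (versions not given in the sources used here) and B73 RefGen_v4 were used for all libraries. The published methods describe mapping for B73 alone, with BWA defaults and uniquely mapped reads. The deposited tables hold 1 line per aligned read, with its position, strand and mapping quality as a score, which ran from 20 to 60 and which the authors did not normalize. Removal of duplicates is not given in the sources used here, and duplicates were kept.

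Bins, scaling and domains were computed as described above in Python 3.11.15 with SciPy 1.17.1 (intervals), NumPy 2.4.6, Matplotlib 3.10.9 and pandas 2.3.3. The calling code was also run on simulated bins with implanted domains. Their background was drawn independently from bins under 10 times the median, so this run cannot show how often false domains arise. The sites named are, on each chromosome, the domain whose enriched bins held the most reads in each line and any further domain of at least 10 enriched bins, with F3-600 given only over the domains of F3-152 and over the B73 domains that F3-152 lacked. The members and lists were chosen with earlier results of these data known. A fragment was counted in a span where either mate lay in it. Intervals are exact binomial for shares, and conditional exact binomial for ratios of shares. They treat duplicate fragments as independent and are too narrow. Fragment lengths are those of read pairs from 40 to 600 bp. Other bin sizes, thresholds, merging distances, minimum sizes and overlaps were tried as alternatives, as were a stricter mapping quality, single counting of duplicate positions, thinning of F3-152 to the depth of B73, scaling to the mean and counting of fragments. Genes and sequences of the domains were not analysed here, because the gene table at hand is of another assembly.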

Additional observations from a re-analysis of the deposited data

Results flagged for a closer look

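The F3-600 library lies outside the comparison of F3-152 with B73, although it helped to set the bins that were high, or held reads, in all libraries. It showed a signal at the second F3-152 domain of chromosome 9. Over the 11 bins that were not at 50-fold or more in all libraries its median was 15.7-fold, above the 10.6-fold of F3-152 and the 1.28-fold of the control B73, with 9 bins enriched in F3-600, 7 in F3-152 and none in B73.

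Reads on names other than chromosomes 1 to 10, which no domain uses, made up 0.340% of the F3-152 reads (95% exact interval 0.337% to 0.342%, 71392 reads) and 0.0702% of the F3-600 reads, against 0.0834% of the B73 reads (0.0814% to 0.0855%, 6438 reads). Leaving them out of the totals moves a share of the library by less than this percentage of its value.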

How the results depend on the processing

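The 4 results were recomputed to give 45 alternative values. In 32 cases the value was inside the counting interval of the share or within 1.5 times of the count or length, and 13 values moved. The count of 8 F3-152 domains was 5 with bins of 50 kb, where the minimum of 10 bins spans more DNA by construction, and ranged from 6 to 12 otherwise. The enriched length, taken over 1 domain per chromosome, was 5.22 Mb and fell to 2.64 Mb at 20 times the median, since a higher threshold leaves fewer bins. The share of reads in these bins was 5.01%. It was 4.90% with bins of 50 kb, 5.72% and 3.41% at 5 and 20 times, 4.49% and 5.04% with merging over 100 and 1000 kb, 5.19% at a mapping quality of at least 30, 4.07% with 1 read per start, end and strand, 5.03% after thinning and 4.83% with scaling to the mean. Only domains of at least 10 bins, 1 per chromosome, gave 4.77%, and every such domain 5.36%. These last 2 settings, and leaving out bins at 50-fold or more in all 3 libraries, were chosen after seeing the data. Apart from fewer bins at a stricter setting, the cause was not tested. The lines overlapped on 6 chromosomes counting the narrow site of chromosome 7, and on 5 to 7 under the alternatives.

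The chromosome 1 domain held at least 10 enriched bins in F3-152 and none in B73 under every setting run for it. The first chromosome 10 domain held 7 with bins of 50 kb and 15 at 20 times, with none in B73. The second chromosome 9 domain held fewer than 10 with bins of 50 kb (2), at 20 times (3), with 1 read per start, end and strand (8), with scaling to the mean (7) and without the bins high in all libraries (7). The chromosome 3 domain split into 2 pieces, with 7 bins in all with bins of 50 kb and 10 in all at 20 times, and no piece reached 10. At the B73 domains of chromosomes 2 and 8 F3-152 had no enriched bin, except 2 on chromosome 2 at 5 times. Repeats that cannot be placed with unique reads limit all of these calls, and with 1 library per line no spread between plants was measured.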
